A study of Homo sapiens with 12 samples.

Results

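The 10 genes described here are regulators and outputs of the integrated stress response: ATF4, ATF3, ATF5, CEBPB, CEBPG, DDIT3, TRIB3, PPP1R15A, NUPR1 and CHAC1. They were taken by gene symbol from 34318 genes with at least 1 transcript in the annotation used. All of the libraries came from HEK293T, an established, easily transfected human embryonic kidney line labelled as epithelial. In one experiment the cells were transfected by Lipofectamine RNAiMax with a control siRNA (siControl) or with an siRNA against POLR3A (siPOLR3A) and were measured after 2 days. POLR3A encodes the largest subunit of RNA polymerase III (Pol III), the enzyme that makes transfer RNAs and other short noncoding RNAs. In the other experiment the cells were not labelled as transfected and spent 4 hours in 25 µM ML60218, a chemical inhibitor of Pol III, or in the vehicle DMSO at 0.1%. Each of the 4 groups had 3 libraries of messenger RNA, 12 in all. Nothing in the labels says that replicates came from separate cultures, so a p-value measures only the spread between these libraries.

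The integrated stress response starts when one of a small family of kinases phosphorylates the translation initiation factor eIF2. Most translation then slows, while the mRNA of ATF4, a transcription factor of the basic leucine zipper (bZIP) type, is translated more because of short reading frames ahead of its coding sequence. ATF4 pairs with C/EBP proteins at composite DNA elements and activates genes for amino acid supply, redox balance and feedback on the pathway. An mRNA library shows the level of the ATF4 message and of its targets, not the phosphorylation of eIF2 or the amount of ATF4 protein.

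The libraries held between 37008325 and 49479476 estimated reads, and replicates of a group differed by more than counting noise (chi-square per gene of 4.39 to 25.1), so none was a duplicate. POLR3A itself fell from 90.8 ± 3.56 (SD, n = 3) to 17.6 ± 2.65 CPM (reads scaled to library size) with siPOLR3A, and from 112.6 ± 4.99 to 86.5 ± 2.2 CPM with ML60218. Of 8 markers of kidney epithelium, 6 had a mean of at least 1 TPM (abundance scaled to transcript length and library size), while KRT19 and PAX8 were at or near 0. The summed kidney epithelium markers, mostly KRT18, ranged from 39 to 43.2 TPM in siControl and 44.1 to 47 in siPOLR3A. In DMSO they ranged from 45.1 to 46 and in ML60218 from 47.9 to 51.1. PTPRC, the pan-leukocyte marker, was at 0 in every library. The summed hepatocyte list reached at most 0.38 TPM and the endothelial list 0.128. The summed fibroblast list, mostly COL1A1, ranged from 21.5 to 32.9 TPM. The part of these marker shifts in the results below was not tested. In bulk RNA, fewer cells of a kind and less RNA per cell cannot be told apart.

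Windows around the annotated start sites of these genes (RefSeq, GRCh38.p14) were searched on both strands for 4 motifs tied to the pathway. The windows were available for 9 of the 10 genes, all except NUPR1. TGATGNAA, the composite element bound by ATF and C/EBP pairs, is in 3.62% of 35116 windows of the same length. Counted by gene, 4.46% of 27305 genes have it in a window, and it was found for 3 of the 9, ATF3, CEBPG and CHAC1. TGACGTCA, the cyclic AMP response element, is in 1.85% of windows (2.25% of genes) and was found for PPP1R15A. The C/EBP palindrome TTGCGCAA is in 0.151% of windows. The ER stress response element, CCAAT and CCACG separated by 9 bases, is in 0.0769%. Neither of the latter motifs was in a window of these genes. For TRIB3, ATF3 and CEBPG no window reached the start of the leading transcript, so the stretch just before that start was not searched. The start sites of the TRIB3 windows lie 678 to 726 bases downstream of the start of TRIB3-201. The matched stretches are printed because they are the places where pathway members that rose with ML60218 carry the letters of a known element. Each is written 5′ to 3′ on the strand of the gene, with the match in capitals:
ATF3, chr1:212565176-212565263, plus strand: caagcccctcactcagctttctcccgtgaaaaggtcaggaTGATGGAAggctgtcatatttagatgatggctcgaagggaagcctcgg
CEBPG, chr19:33374031-33374112, plus strand: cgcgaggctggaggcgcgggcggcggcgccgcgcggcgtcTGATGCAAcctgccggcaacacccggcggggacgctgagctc
CHAC1, chr15:40953251-40953280, plus strand: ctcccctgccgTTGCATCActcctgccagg
PPP1R15A, chr19:48872323-48872391, plus strand: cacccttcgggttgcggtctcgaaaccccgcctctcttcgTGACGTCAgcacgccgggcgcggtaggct
In CHAC1 the capitals read as the reverse complement of the composite element and lie 209 to 202 bases before the start site. That stretch is inside the first exon of CHAC1-201 and CHAC1-202 but upstream of CHAC1-204, the transcript that held most of the CHAC1 signal, whose start is 33 bases before the start site of the window. In PPP1R15A the element lies 58 to 51 bases before the start site, and the leading transcript starts 29 bases before that site. In CEBPG it lies 42 to 35 bases before the start site of a second window, 783 bases downstream of the annotated start of the leading transcript CEBPG-201 and in its first intron. In ATF3 it lies 191 to 184 bases before a start site that is 43263 bases upstream of the start of ATF3-202, the transcript with most of the ATF3 signal. A match of letters is a description and shows no binding.

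ML60218 raised most of these genes within 4 hours. CHAC1 rose 8.9-fold, ATF3 4.85-fold and DDIT3 4.29-fold, and NUPR1, PPP1R15A, CEBPB, CEBPG and TRIB3 rose by between 1.28-fold and 2.18-fold. ATF5 fell, to 0.631 of its level in DMSO. In all, 9 of the 10 genes passed an adjusted p under 0.05 in edgeR's quasi-likelihood test, 8 higher and 1 lower, against 39% of the 15461 genes tested (18.1% higher, 20.9% lower). The CPM ranges of ML60218 and DMSO were free of overlap for these 9 genes, against 51.9% of all genes. The median log2 fold change of the 10 was 1.06, against 0.005 over all genes. The tenth, ATF4, depends on which transcripts are counted and is described first below.

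With siPOLR3A fewer of the same genes passed the test. Their log2 fold changes lay between −0.23 and 0.47, and the median absolute value over all genes was 0.229. CHAC1 had the largest, 0.47, and did not pass with an SE of 0.235. ATF4, ATF5 and CEBPB passed the test and were 1.13-fold, 1.35-fold and 1.21-fold higher, and the other 7 did not pass. This share of 3 in 10 was below the 56.6% of the 15404 genes tested that passed (27.4% higher, 29.2% lower). The CPM ranges were free of overlap for the same 3 genes, against 63.4% of all genes. The median log2 fold change of the 10 was 0.18, against 0.005 over all genes. The rise of ATF4 turned into a fall once its main transcript was counted. With a block for replicate number, ATF3 passed as lower and DDIT3 and PPP1R15A as higher. The labels do not say that these numbers pair libraries.

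**Figure D1:**
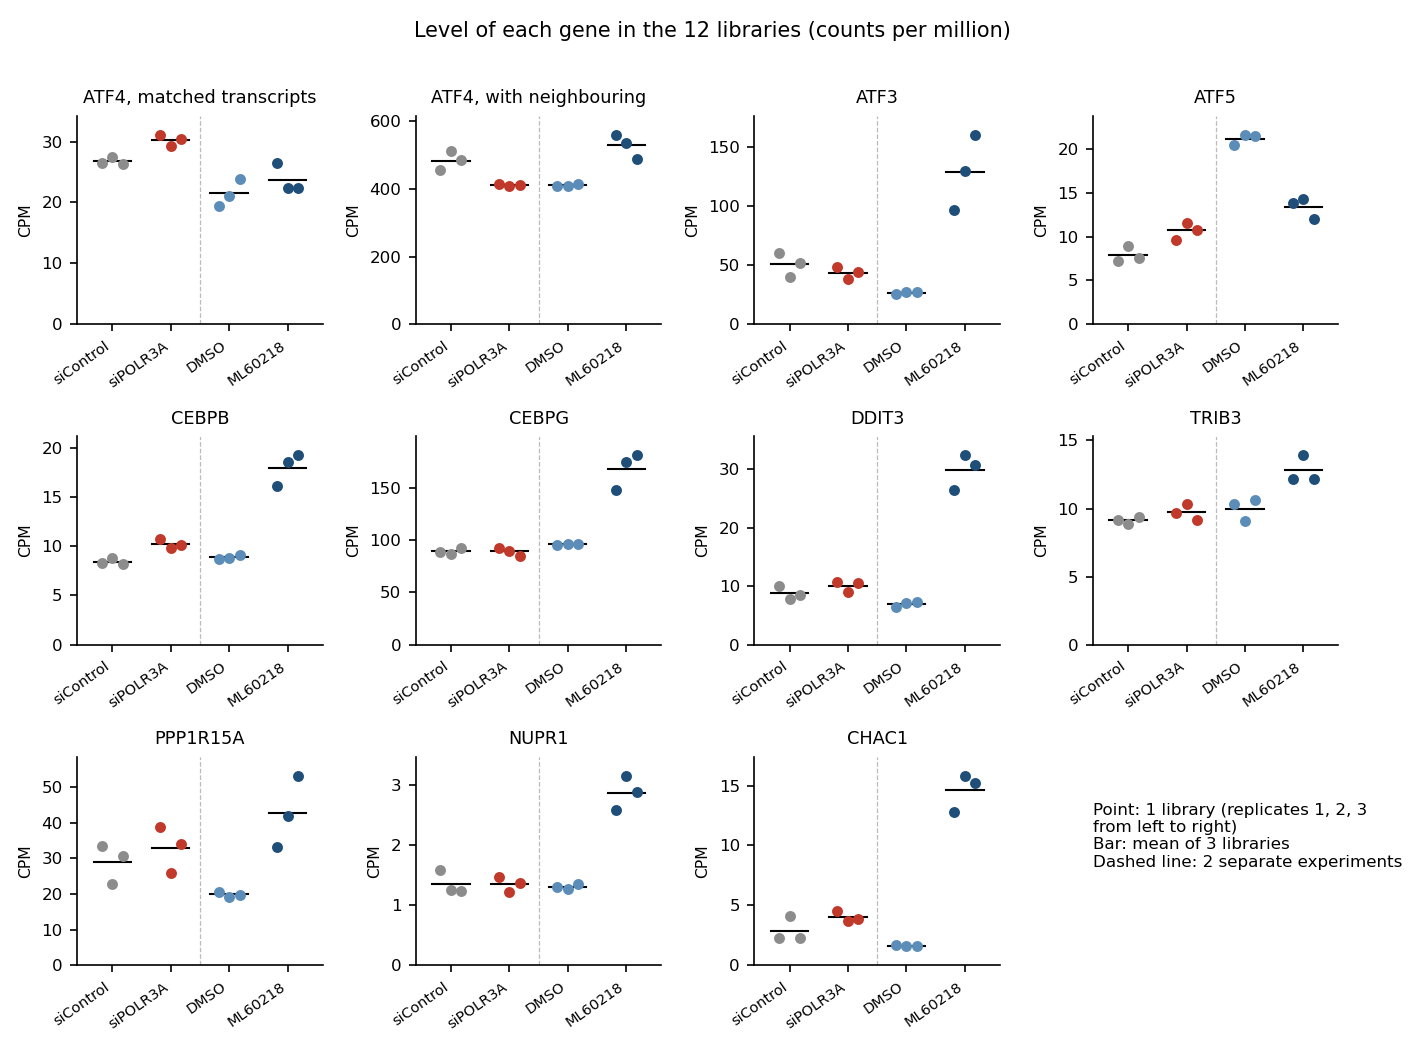
Level of each gene in CPM (y axis, linear from 0) in the 12 libraries by group (x axis); points are libraries, bars are means of 3, and ATF4 is shown for matched transcripts and with its neighbouring transcripts. CHAC1, ATF3, DDIT3, CEBPB, CEBPG, PPP1R15A, NUPR1 and TRIB3 sit higher in all ML60218 libraries than in all DMSO libraries, while ATF5 sits lower.

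ATF4 (ENSG00000128272, GRCh38 chromosome 22, 39519695 to 39522685, plus strand) was by far the most abundant of the 10 messages. Its transcripts in the annotation took only a small part of its signal, because the deposited table also lists ENST00000674920, a transcript of 1419 bases that this annotation lacks. In the table that transcript stands among the ATF4 transcripts, and transcripts placed this way held between 92.8% and 96.0% of the ATF4 reads. Counted with them, ATF4 was measured at 454.6, 512.2 and 484.0 CPM in siControl and at 413.3, 408.6 and 411.7 CPM in siPOLR3A. Every siPOLR3A library was below every siControl library. The log2 fold change was −0.23 (adjusted p 0.000306, SE 0.0371), a level of 0.85 of the control. Counted without them, ATF4 was measured at 26.5, 27.5 and 26.3 CPM in siControl and at 31.1, 29.2 and 30.4 CPM in siPOLR3A, and the log2 fold change was 0.18 (adjusted p 0.00406, SE 0.0452). The direction thus depended on the transcripts counted, and the version with most of the reads is the one that fell.

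In the inhibitor experiment the message of ATF4 was higher with ML60218 when all of its transcripts were counted. It was measured at 407.2, 409.7 and 414.1 CPM in DMSO and at 559.5, 536.2 and 489.4 CPM in ML60218. The ranges did not overlap, and the log2 fold change was 0.36 (adjusted p 0.000163, SE 0.0444). The matched transcripts alone stood at 19.5, 21 and 23.9 CPM in DMSO and 26.5, 22.3 and 22.4 CPM in ML60218, where the ranges overlapped and the log2 fold change was 0.14 (adjusted p 0.257, SE 0.0921). With the neighbouring transcripts counted, 10 of 10 genes passed the test in the inhibitor experiment, 9 higher and 1 lower. In the siRNA experiment 3 passed, 2 higher and 1 lower. Over all genes, counted with matched transcripts, 39% passed in the inhibitor experiment and 56.6% in the siRNA experiment.

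ATF3 (ENSG00000162772, chromosome 1, 212565334 to 212620777, plus strand) encodes a bZIP factor that is induced by many stresses and can act as a repressor. It stood at 25.4, 27.3 and 27.3 CPM in DMSO and at 97.1, 129.6 and 160.5 CPM in ML60218. The groups were far apart, although the ML60218 libraries themselves spread by 1.65-fold. The log2 fold change was 2.28 (adjusted p 0.00222, SE 0.217), the 11th highest of all genes tested. In siControl ATF3 stood at 60.8, 40.1 and 52.2 CPM and in siPOLR3A at 48.3, 38.4 and 44 CPM. Those ranges overlapped, and the log2 fold change of −0.23 did not pass the test (adjusted p 0.39, SE 0.194).

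ATF5 (ENSG00000169136, chromosome 19, 49928702 to 49933935, plus strand) encodes a relative of ATF4 whose message is under similar translational control. It was the one gene of the 10 that fell with ML60218, from 20.4, 21.6 and 21.5 CPM in DMSO to 13.8, 14.3 and 12 CPM. All of the ML60218 libraries lay below the DMSO libraries, and the log2 fold change was −0.66 (adjusted p 0.000239, SE 0.0726), 187th from the lowest of 15461 genes. With siPOLR3A it went the other way, from 7.24, 8.9 and 7.54 CPM in siControl to 9.63, 11.5 and 10.8 CPM. The ranges were again free of overlap, with a log2 fold change of 0.43 (adjusted p 0.00122, SE 0.0928).

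CEBPB and CEBPG encode C/EBP proteins that pair with ATF4. CEBPB (ENSG00000172216, chromosome 20, 50190734 to 50192689, plus strand) stood at 8.71, 8.82 and 9.09 CPM in DMSO and at 16.1, 18.5 and 19.2 CPM in ML60218, a log2 fold change of 1.01 (adjusted p 7.41e-05, SE 0.0781). In siControl it stood at 8.29, 8.79 and 8.22 CPM and in siPOLR3A at 10.7, 9.82 and 10.1 CPM, a log2 fold change of 0.28 (adjusted p 0.00419, SE 0.0705). Every treated library exceeded every control library in both experiments. CEBPB was the only gene of the 10 that passed the test in the same direction in both, whichever ATF4 transcripts were counted. CEBPG (ENSG00000153879, chromosome 19, 33373330 to 33382686, plus strand) stood at 95.5, 96 and 95.8 CPM in DMSO and at 147.7, 174.8 and 180.8 CPM in ML60218, a log2 fold change of 0.81 (adjusted p 0.000284, SE 0.0711). Its siControl libraries held 88.9, 86.6 and 92.8 CPM and its siPOLR3A libraries 92.6, 89.8 and 84.8 CPM. These overlapped, and the log2 fold change of −0.01 did not pass (adjusted p 0.899, SE 0.0368).

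DDIT3 (ENSG00000175197, chromosome 12, 57516588 to 57521737, minus strand) encodes CHOP, a C/EBP-related factor downstream of ATF4 that is linked to cell death under lasting stress. It stood at 6.47, 7.1 and 7.31 CPM in DMSO and at 26.5, 32.4 and 30.8 CPM in ML60218. The gap between the groups was many times the spread within either, with a log2 fold change of 2.10 (adjusted p 1.51e-06, SE 0.0864), the 18th highest of all genes tested. In siControl it stood at 10.1, 7.84 and 8.58 CPM and in siPOLR3A at 10.7, 8.95 and 10.6 CPM. The groups overlapped and the log2 fold change of 0.19 did not pass (adjusted p 0.137, SE 0.103). Without siControl replicate 1 it was 0.30 and passed (adjusted p 0.0197), and without siPOLR3A replicate 2 it was 0.27 and passed (adjusted p 0.0485).

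TRIB3 and PPP1R15A act back on the pathway. TRIB3 (ENSG00000101255, chromosome 20, 362835 to 397559, plus strand) encodes a pseudokinase that binds ATF4 and restrains it. It showed the smallest rise with ML60218 among the genes that passed, from 10.3, 9.09 and 10.6 CPM in DMSO to 12.2, 13.9 and 12.2 CPM, a log2 fold change of 0.36 (adjusted p 0.00889, SE 0.0854). Its ranges were free of overlap there, but not in the siRNA experiment, where siControl held 9.19, 8.9 and 9.36 CPM and siPOLR3A 9.68, 10.3 and 9.18 CPM (log2 fold change 0.09, SE 0.0707, adjusted p 0.322).

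PPP1R15A (ENSG00000087074, chromosome 19, 48872392 to 48876057, plus strand) encodes GADD34, which directs protein phosphatase 1 to phosphorylated eIF2. It stood at 20.7, 19.2 and 19.7 CPM in DMSO and at 33.2, 41.8 and 53.2 CPM in ML60218. The ML60218 libraries spread by 1.6-fold and still lay above every DMSO library, with a log2 fold change of 1.11 (adjusted p 0.00763, SE 0.182). In siControl it stood at 33.6, 22.9 and 30.6 CPM and in siPOLR3A at 38.8, 26 and 34.2 CPM, which overlapped (log2 fold change 0.18, SE 0.229, adjusted p 0.543). PPP1R15B, its constitutive counterpart, stood at 167.5 ± 4.14 CPM in DMSO and 168.2 ± 8.59 in ML60218 and did not pass (adjusted p 0.92). It rose with siPOLR3A, from 224.6 ± 6.74 to 250.3 ± 10.9 CPM (adjusted p 0.00148).

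NUPR1 (ENSG00000176046, chromosome 16, 28532708 to 28539174, minus strand) encodes a small stress-induced chromatin protein and was the least abundant of the 10 by TPM in every group. It stood at 1.31, 1.27 and 1.36 CPM in DMSO and at 2.58, 3.15 and 2.88 CPM in ML60218. These values rest on 52.5 to 57.6 and 94.5 to 130.4 estimated reads per library. The groups did not overlap, and the log2 fold change was 1.12 (adjusted p 0.000449, SE 0.143). With siPOLR3A it was at 1.47, 1.22 and 1.37 CPM, within or next to the siControl values of 1.59, 1.25 and 1.24, and it did not pass (log2 fold change −0.004, SE 0.185, adjusted p 0.988).

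CHAC1 (ENSG00000128965, chromosome 15, 40952962 to 40956519, plus strand) encodes a gamma-glutamylcyclotransferase that breaks down glutathione and is a known target of the ATF4 and DDIT3 branch. It stood at 1.66, 1.63 and 1.62 CPM in DMSO and at 12.8, 15.8 and 15.2 CPM in ML60218, from 67 to 72 estimated reads per library to between 466 and 688. The log2 fold change of 3.15 (adjusted p 6.29e-07, SE 0.108) was the 4th highest of all genes tested. In siControl it stood at 2.3, 4.09 and 2.28 CPM and in siPOLR3A at 4.55, 3.65 and 3.82 CPM. One siControl library, replicate 2, lay among the siPOLR3A values. The log2 fold change of 0.47 did not pass with all libraries (adjusted p 0.126, SE 0.235). Without siControl replicate 2 it was 0.80 and passed (adjusted p 0.000639).

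Its paralog CHAC2, which degrades glutathione at a slower, constant rate, fell in both experiments. CHAC2 went from 32.9 ± 0.521 to 25.7 ± 1.31 CPM with ML60218 (log2 fold change −0.36, adjusted p 0.000764). With siPOLR3A it went from 24.2 ± 1.41 to 19.7 ± 0.192 CPM (log2 fold change −0.29, adjusted p 0.000353). TRIB1, a paralog of TRIB3, rose in both, by 0.46 with ML60218 (adjusted p 0.0234) and by 0.33 with siPOLR3A (adjusted p 3.32e-06) on the log2 scale. With any one of the DMSO libraries left out its adjusted p for ML60218 was between 0.0608 and 0.0721. TRIB2 did not pass in either experiment (log2 fold change −0.11, adjusted p 0.143, and 0.10, adjusted p 0.0786). NUPR2, a paralog of NUPR1, did not pass either (0.25, adjusted p 0.502, and 0.23, adjusted p 0.489).

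The ML60218 libraries did not respond evenly. Of the 9 genes that were higher, with all transcripts of ATF4 counted, replicate 1 was the lowest of the 3 for 7. Without that library, and without each of the other libraries of this comparison in turn, 9 of the 10 genes passed the test with matched transcripts. The labels do not say that replicate numbers pair libraries across groups, so this is described as a spread within the ML60218 group.

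**Figure D2:**
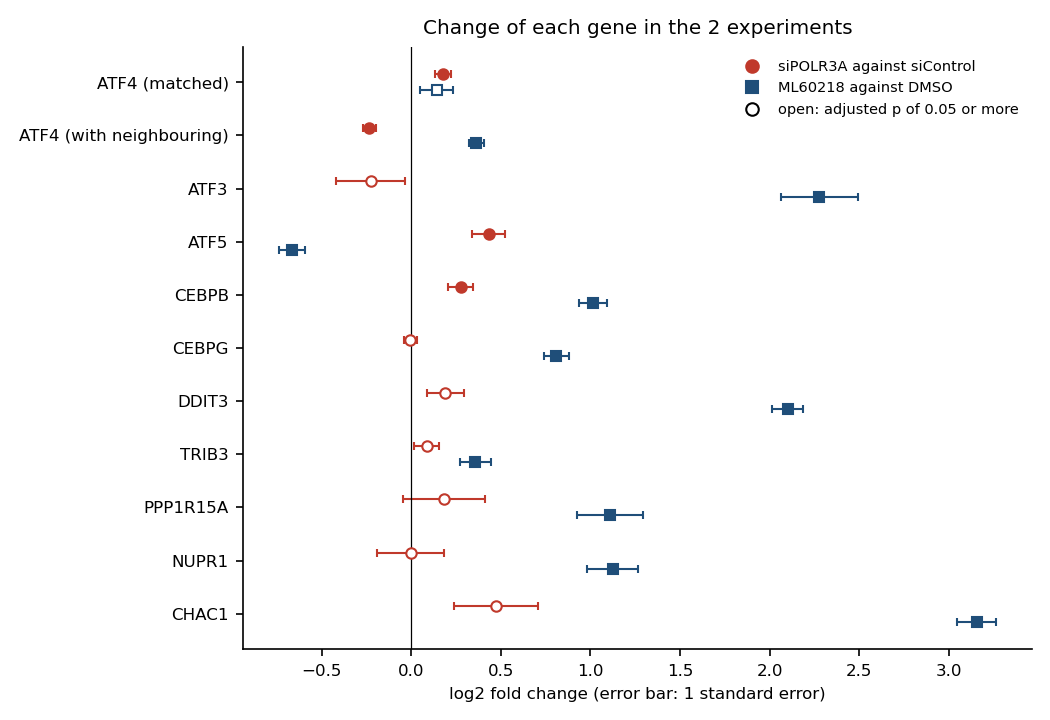
Log2 fold change (x axis) of each gene (y axis) with siPOLR3A (circles) and with ML60218 (squares); error bars are 1 standard error and open symbols did not reach an adjusted p under 0.05. The ML60218 values reach 3.15 for CHAC1, while the siPOLR3A values stay between −0.23 and 0.47. ATF4 with neighbouring transcripts and ATF5 pass in both experiments and lie on opposite sides of 0. ATF3, CEBPG and NUPR1 have siPOLR3A values below 0 that did not pass. Those of CEBPG (−0.006) and NUPR1 (−0.004) are within 1 standard error of 0 and show no direction.

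Whether the effects of siRNA and inhibitor differed was tested with the 12 libraries in a single model, and a negative difference means a larger value with ML60218. These experiments also differ in duration and transfection, which cannot be told apart from the agent. The difference passed the test for 8 of the 10 genes, 7 negative and 1 positive, against 50.9% of the 15780 genes tested (24.5% positive, 26.4% negative). The negative differences were −2.68 for CHAC1 (adjusted p 3.31e-06, SE 0.272), −2.50 for ATF3 (adjusted p 0.00013, SE 0.301) and −1.91 for DDIT3 (adjusted p 9.66e-08, SE 0.148). They were smaller for NUPR1 at −1.12 (adjusted p 0.000434, SE 0.217), CEBPG at −0.81 (adjusted p 1.42e-05, SE 0.0923) and CEBPB at −0.73 (adjusted p 2e-05, SE 0.102). PPP1R15A was at −0.92 (adjusted p 0.0338, SE 0.306), and its call was lost in 10 of the alternative settings, where the adjusted p reached 0.0765. ATF5 was the gene with a positive difference, 1.10 (adjusted p 2.23e-06, SE 0.124). TRIB3 did not pass (−0.27, SE 0.111, adjusted p 0.0587), although it did in 7 of the alternative settings, where the adjusted p went down to 0.0202. ATF4 differed by 0.04 with matched transcripts (adjusted p 0.778, SE 0.104) and by −0.60 with its neighbouring transcripts (adjusted p 4.48e-07, SE 0.0594).

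On the TPM scale, which allows levels of different genes to be ordered, ATF4 with its neighbouring transcripts came first in all groups. Its level was 465.7 ± 12.5 TPM in siControl, 398.9 ± 3.89 in siPOLR3A, 404.6 ± 7.98 in DMSO and 575.4 ± 10.8 in ML60218. NUPR1 came last in all groups, between 0.82 ± 0.434 and 4 ± 0.626 TPM. In DMSO the order between them was CEBPG (34.9 ± 0.949), ATF3 (19.5 ± 0.0497), ATF5 (18.5 ± 0.397), CEBPB (15.8 ± 0.215), DDIT3 (10.1 ± 0.357), PPP1R15A (8.94 ± 0.52), TRIB3 (7.98 ± 0.369) and CHAC1 (2.13 ± 0.0365), and no neighbours in that order overlapped. With ML60218 it became ATF3 (107.9 ± 30.7), CEBPG (67 ± 10.1), DDIT3 (48 ± 7.25), CEBPB (34.4 ± 4.28), PPP1R15A (21.4 ± 6.32), CHAC1 (21.3 ± 2.94), ATF5 (14.4 ± 1.13) and TRIB3 (11.2 ± 1.01). There PPP1R15A and CHAC1 overlapped. CHAC1 thus moved from the 9th to the 7th level of the 10, past TRIB3 and ATF5. In both siRNA groups ATF3 (37.8 ± 7.95 and 32.6 ± 3.81) came before CEBPG (32.2 ± 1.87 and 32.4 ± 1.16), with overlapping ranges. CEBPB, DDIT3, PPP1R15A, ATF5, TRIB3 and CHAC1 then followed in the same order in both. In that order DDIT3 and PPP1R15A overlapped in both groups, and CEBPB with DDIT3 and ATF5 with TRIB3 in siControl alone. The siControl and DMSO libraries belong to separate experiments, and ATF5 stood at 7.3 ± 0.777 TPM in the former and 18.5 ± 0.397 in the latter.

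**Figure D3:**
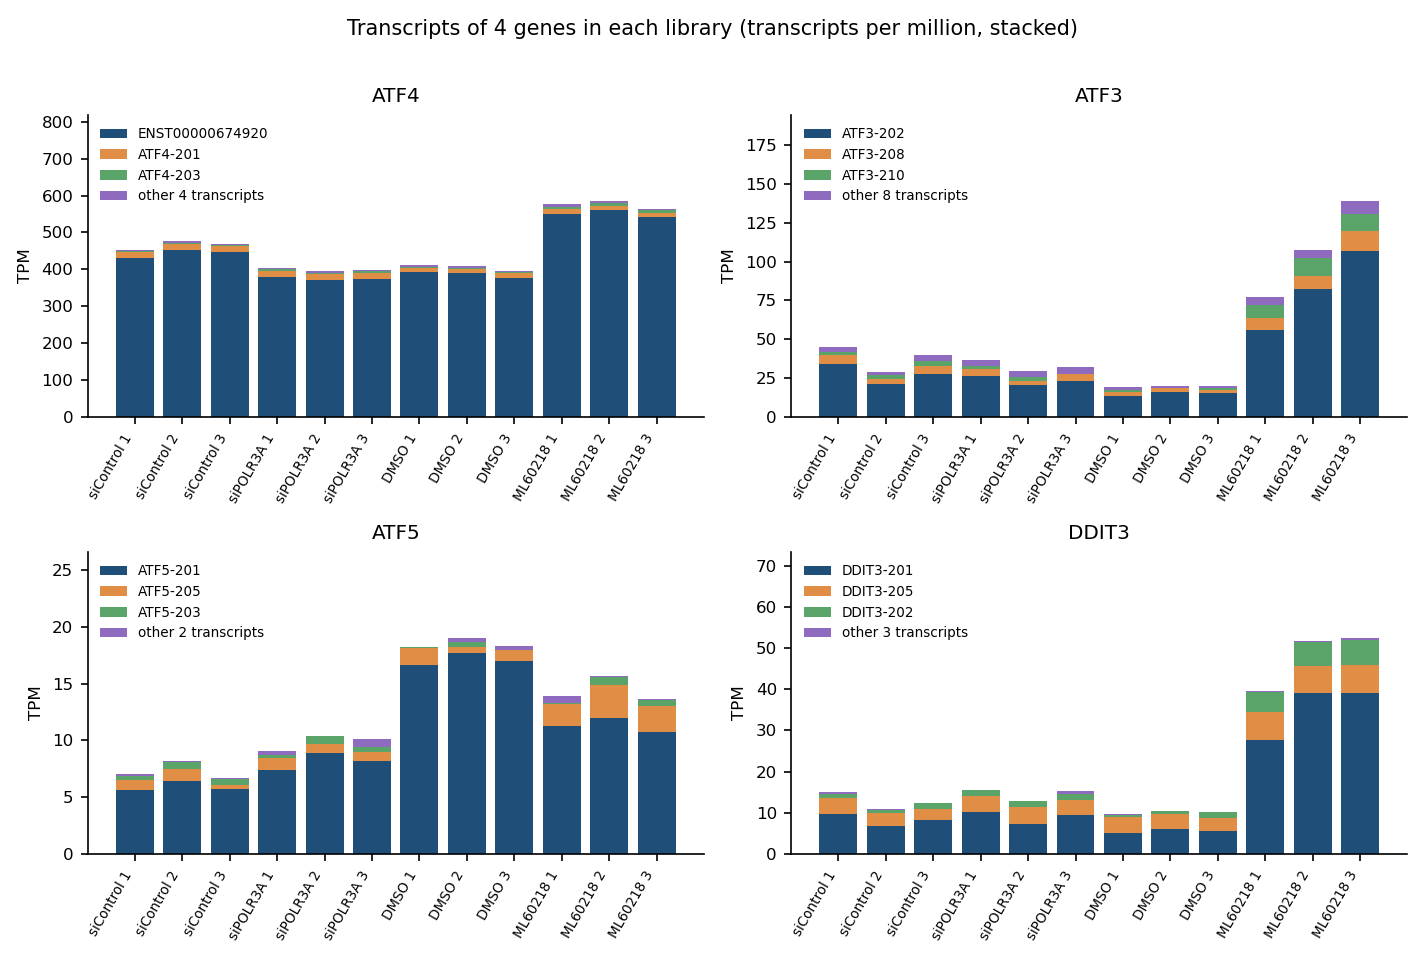
Stacked TPM (y axis) of the 3 leading transcripts and the sum of the others in each of the 12 libraries (x axis) for ATF4, ATF3, ATF5 and DDIT3; 4 genes, each with its own scale. ENST00000674920 makes up nearly all of the ATF4 bar, DDIT3-201 makes up most of the added DDIT3 with ML60218, and the ATF5 bar is shorter with ML60218 although ATF5-205 is taller.

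The transcripts behind these sums did not all move alike. ENST00000674920 alone took 95.4 ± 0.27% of ATF4 TPM in DMSO and 95.8 ± 0.44% in ML60218, and 95.3 ± 0.33% in siControl and 93.9 ± 0.17% in siPOLR3A. For DDIT3, the share of DDIT3-201 went from 55 ± 2.6% in DMSO to 73.5 ± 2.8% in ML60218, and that of DDIT3-205 from 35.5 ± 3.2% to 14.2 ± 2.5%. DDIT3-201 accordingly went from between 5.16 and 6.02 TPM to between 27.8 and 39.2 TPM, while DDIT3-205 went from between 3.3 and 3.76 to between 6.53 and 6.78. For ATF5, the share of ATF5-201 went from 92.3 ± 1.2% to 78.7 ± 2.3% and that of the short ATF5-205, of 682 bases, from 5.36 ± 2.9% to 16.4 ± 2.4%. The fall of ATF5 was smaller per length than in counts, with a log2 fold change of −0.35 on log2(TPM + 0.5) in limma (adjusted p 0.0108, SE 0.077). ATF3-202 kept 76.6 ± 6.6% of ATF3 in DMSO and 75.3 ± 2.4% in ML60218. Shares of overlapping transcripts are estimates of the quantification program and were not tested.

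The other genes of the pathway were followed in 8 lists chosen by role. Their counts are to be read against the shares of all genes tested that passed, 18.1% higher and 20.9% lower with ML60218 and 27.4% higher and 29.2% lower with siPOLR3A. Among 21 tested genes of amino acid synthesis and transport, 15 rose and 1 fell with ML60218, with a median log2 fold change of 0.41, while 6 rose and 10 fell with siPOLR3A, with a median of −0.12. The 6 rises with siPOLR3A are near the share over all genes. The difference between the effects passed for 16 of them, all negative, against 26.4% of all genes. ASNS, asparagine synthetase, went from 119.0 ± 3.24 to 240.0 ± 12.8 CPM with ML60218 (log2 fold change 1.01, adjusted p 1.51e-06) and was at 0.06 with siPOLR3A (adjusted p 0.0894). SLC7A11, the cystine importer that supplies glutathione synthesis, went from 26.7 ± 1.5 to 89.9 ± 12.2 CPM (1.75, adjusted p 0.000173) and was at 0.02 with siPOLR3A (adjusted p 0.657). CTH, which makes cysteine from cystathionine, rose by 1.34 with ML60218 (adjusted p 1.51e-06) and was at −0.12 with siPOLR3A (adjusted p 0.112). The largest fall with siPOLR3A was in PYCR1, an enzyme of proline synthesis, by 0.70 (adjusted p 2.39e-10), and it was at 0.06 with ML60218 (adjusted p 0.307). SLC6A9, a glycine transporter, rose in both, by 1.05 with ML60218 (adjusted p 9.24e-05) and by 0.55 with siPOLR3A (adjusted p 7.62e-06).

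Of 12 aminoacyl-tRNA synthetases regulated by ATF4, which load amino acids onto transfer RNAs, 10 rose and 0 fell with ML60218, with a median of 0.20. Over all genes 18.1% rose and 20.9% fell with ML60218. With siPOLR3A 3 rose, near the 27.4% of all genes, and 7 fell, against 29.2%, with a median of −0.11. CARS1 rose by 0.49 with ML60218 (adjusted p 0.000118) and by 0.28 with siPOLR3A (adjusted p 4.55e-05). SARS1 rose by 0.29 with ML60218 (adjusted p 0.000391) and fell by 0.39 with siPOLR3A (adjusted p 5.53e-09). The difference passed for 9 of the 12, all negative, against 26.4% of all genes. XPOT, which exports transfer RNAs from the nucleus, rose by 0.15 with ML60218 (adjusted p 0.00391) and fell by 0.36 with siPOLR3A (adjusted p 5.68e-09).

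Among targets tied to stress signalling, growth and death, 13 of 18 tested rose and 3 fell with ML60218, with a median of 0.48, while 7 of 17 rose and 6 fell with siPOLR3A, with a median of −0.01. The 3 and 6 falls are near the 20.9% and 29.2% of all genes that fell, and the 13 and 7 rises stand against 18.1% and 27.4%. The stanniocalcin gene STC2 went from 100.4 ± 5.18 to 296.9 ± 20.3 CPM with ML60218 (log2 fold change 1.56, adjusted p 2.16e-06) and rose by 0.11 with siPOLR3A (adjusted p 0.00535). DDIT4, an inhibitor of mTORC1 signalling, went from 57.5 ± 4.48 to 162.6 ± 2.03 CPM with ML60218 (log2 fold change 1.50, adjusted p 6.29e-07). With siPOLR3A it fell from a higher control level, 175.3 ± 12 CPM, to 117.5 ± 7.85 (−0.58, adjusted p 0.000992). The controls belong to separate experiments. The peptide hormone gene ADM2 rose by 1.82 (adjusted p 1.12e-05) and by 0.70 (adjusted p 2.72e-05), and INHBE, an inhibin subunit, by 1.40 (adjusted p 0.00022) and by 0.76 (adjusted p 0.00282). GDF15, a stress-induced hormone, was low, at 0.229 ± 0.151 CPM in DMSO and 0.845 ± 0.187 in ML60218 (log2 fold change 1.88, adjusted p 0.00516). In the siRNA experiment GDF15 was below the filter on low counts. BCL2L11, which encodes the death-promoting protein BIM, fell in both, by 0.21 (adjusted p 0.0113) and by 0.20 (adjusted p 6.01e-05). With ML60218 that call was lost with total count scaling (−0.14, adjusted p 0.0854) and with the isoform length offset (−0.14, adjusted p 0.254). VLDLR, a lipoprotein receptor, is like ATF4 in that 91.1% of its reads were in neighbouring transcripts. With siPOLR3A its log2 fold change was −0.20 with matched transcripts (adjusted p 0.326) and 0.75 with them (adjusted p 7.27e-13), and with ML60218 it was 0.79 (adjusted p 0.00725) and 0.71 (adjusted p 5.72e-05). With the isoform length offset on matched transcripts the siPOLR3A value was −1.20 (adjusted p 0.00242), so its direction there depended on the processing. It was the only one of 114 listed genes with a matched transcript for which such transcripts held most of the reads. SESN2, which encodes a leucine sensor, and PCK2, a gluconeogenic enzyme, lacked a matched transcript and are left out here.

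**Figure D4:**
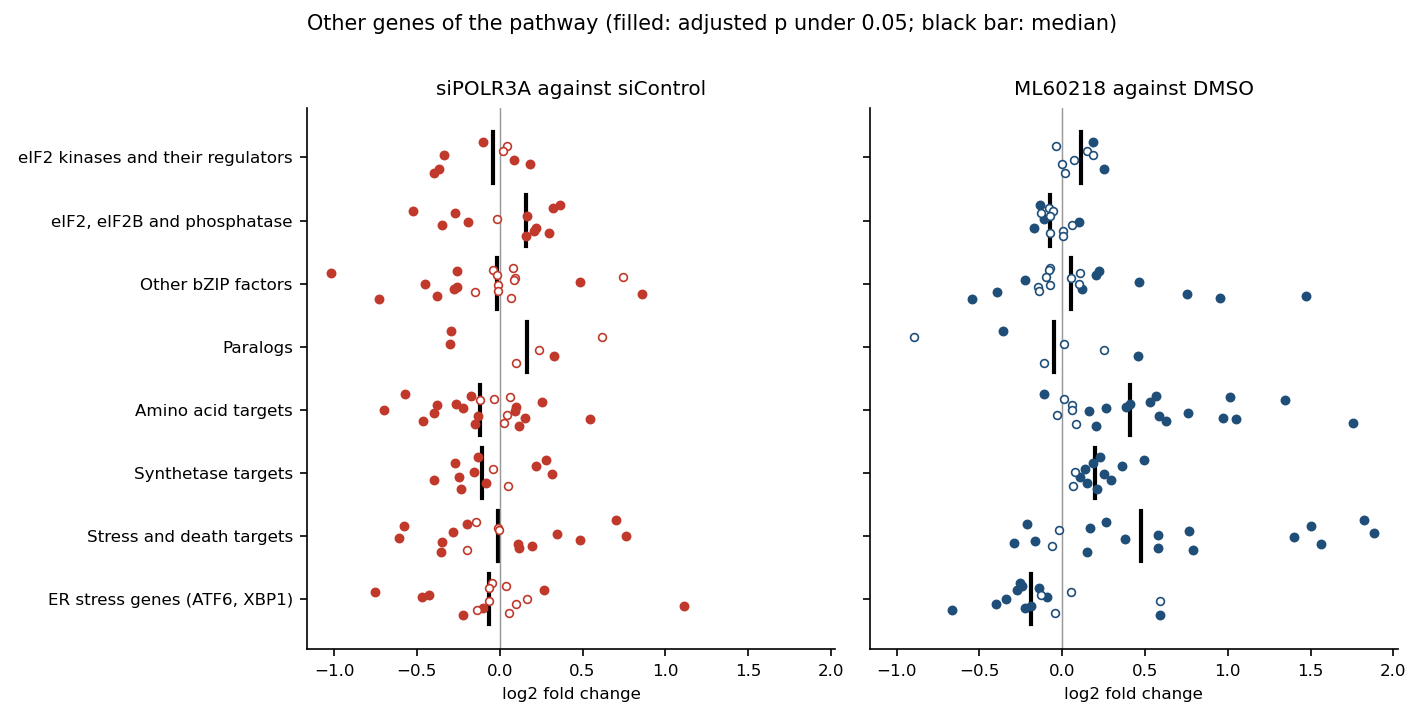
Log2 fold change (x axis) of the tested genes of 8 lists (y axis) with siPOLR3A (left) and ML60218 (right); points are genes, filled where the adjusted p was under 0.05, and black bars are list medians. With ML60218 the amino acid, synthetase and stress and death targets have medians of 0.41, 0.20 and 0.48, and the ER stress genes a median of −0.19.

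Of 8 genes upstream of ATF4, the eIF2 kinases and their regulators, 2 rose and 0 fell with ML60218, with a median of 0.11. The 2 rises are near the 18.1% of all genes that rose. Those 2 were IMPACT, which inhibits the activation of GCN2 by GCN1, at 0.25 (adjusted p 0.00625) and DELE1, which relays mitochondrial stress to the kinase HRI, at 0.19 (adjusted p 0.00746). None of the 4 kinases passed: HRI (EIF2AK1) was at −0.04 (adjusted p 0.417), PKR (EIF2AK2) at 0.15 (adjusted p 0.212), PERK (EIF2AK3) at 0.19 (adjusted p 0.141) and GCN2 (EIF2AK4) at 0.07 (adjusted p 0.108). PERK did pass without ML60218 replicate 1 (0.27, adjusted p 0.0162) and with neighbouring transcripts (0.21, adjusted p 0.00687), PKR without DMSO replicate 1 (0.23, adjusted p 0.0231) and GCN2 with total count scaling (0.14, adjusted p 0.0131). With siPOLR3A 2 of the 8 rose and 4 fell, against 27.4% and 29.2% of all genes. GCN2 rose by 0.08 (adjusted p 0.018) and its activator GCN1 by 0.18 (adjusted p 8.91e-05), while PERK fell by 0.34 (adjusted p 0.000369), IMPACT by 0.36 (adjusted p 1.37e-07) and OMA1, the protease that cleaves DELE1, by 0.39 (adjusted p 7.27e-06). DELE1 fell by 0.10, close to the threshold (adjusted p 0.049), and lost its call in 10 of 15 alternatives (adjusted p up to 0.412). GCN2 lost its call in 4, among them those that left out a library, siControl replicate 2 (adjusted p 0.068) or siPOLR3A replicate 2 (adjusted p 0.0906).

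The 12 genes of eIF2, its exchange factor eIF2B and the phosphatase had 11 calls with siPOLR3A (7 higher, 4 lower, median 0.16) and 4 with ML60218 (1 higher, 3 lower, median −0.07), against 56.6% and 39% of all genes. The 4 calls with ML60218 are near the share over all genes and became 1 without DMSO replicate 2, 2 without DMSO replicate 1 and 2 with total count scaling. With siPOLR3A subunits of one complex moved in opposite directions. EIF2B1 rose by 0.36 (adjusted p 2.17e-06) and EIF2B2 by 0.32 (adjusted p 1.87e-05), while EIF2B3 fell by 0.52 (adjusted p 1.21e-08) and EIF2B4 by 0.27 (adjusted p 2.18e-05).

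Chaperones and other genes of the ATF6 and XBP1 arms of the ER stress response, which run beside the PERK branch, mostly fell with ML60218. Of 15 such genes, 10 fell and 1 rose, against 20.9% and 18.1% of all genes, with a median of −0.19. HSPA5, the chaperone BiP, went from 382.6 ± 7.32 to 302.4 ± 22.4 CPM (log2 fold change −0.34, adjusted p 0.00107). SDF2L1 fell by 0.66 (adjusted p 0.000649), MANF by 0.40 (adjusted p 0.000538) and DNAJB9 by 0.27 (adjusted p 0.0073). XBP1 itself was the gene that rose, by 0.59 (adjusted p 0.00243). With total count scaling 7 of the 15 genes passed in place of 11. With siPOLR3A 2 of the 15 rose, DNAJB9 by 0.27 (adjusted p 0.000441) and PDIA4 by 1.11 (adjusted p 0.00031), and 5 fell, near the 29.2% of all genes that fell, with a median of −0.06. Without siControl replicate 1 the calls with siPOLR3A numbered 11 in place of 7. XBP1 was among the latter, at −0.22 (adjusted p 5.5e-06), and HSPA5 did not pass (0.17, adjusted p 0.23).

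Among 19 tested bZIP factors outside the set, 7 rose and 3 fell with ML60218, with a median of 0.05, and 2 rose and 7 fell with siPOLR3A, with a median of −0.02. The 3 falls with ML60218 are near the 20.9% of all genes, and the 9 calls with siPOLR3A are below the share of 56.6%. JDP2, a repressor related to ATF3, rose by 1.47 with ML60218 (adjusted p 9.35e-05) and fell by 0.38 with siPOLR3A (adjusted p 0.0244), a fall that lost its call in 7 of 15 alternatives (adjusted p up to 0.497). NFIL3 rose by 0.95 with ML60218 (adjusted p 0.000802). Of the circadian output factors, HLF rose in both (0.75, adjusted p 0.000528, and 0.86, adjusted p 4.18e-07) and TEF fell in both (−0.54, adjusted p 0.00172, and −0.73, adjusted p 4.61e-07). CEBPD rose in both, by 0.46 (adjusted p 0.0305) and by 0.48 (adjusted p 0.0167), whereas CEBPA fell with ML60218 by 0.22 (adjusted p 0.0347). With ML60218 these calls were lost in 9 of 15 alternatives for CEBPD (adjusted p up to 0.144) and in 8 for CEBPA (up to 0.127), in both cases when any one of the DMSO libraries was left out. With siPOLR3A the call of CEBPD was lost with DESeq2 (adjusted p 0.136), without siControl replicate 3 (0.0613) and without siPOLR3A replicate 1 (0.063). Over the 8 lists together, 50 of 111 tested genes rose and 21 fell with ML60218, and 30 of 110 rose and 45 fell with siPOLR3A. The 21 falls and the 30 rises are near the 20.9% and 27.4% of all genes, and the 50 rises and 45 falls stand against 18.1% and 29.2%. The medians were 0.10 and −0.04, against 0.005 over all genes in each experiment.

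The genes whose log2 CPM followed CHAC1 most closely over the 12 libraries were SLC7A11 (Pearson r 0.974), ASNS (0.969), STC2 (0.964), TSC22D3 (0.959) and ZNF711 (0.958), out of 10286 protein-coding genes. For DDIT3 they were TSC22D3 (0.988), LETM2 (0.981), ZNF555 (0.981), ARRDC3 (0.980) and ZNF711 (0.978). Of the other genes of the set, NUPR1 was closest to DDIT3 (0.971) and DDIT3 to CHAC1 (0.954). For ATF4 with its neighbouring transcripts they were SIAE (0.918), YARS1 (0.917), ZSCAN26 (0.915), LIAS (0.913) and TSHZ2 (0.912). For its matched transcripts the list was a different one, led by SLC27A1 (0.969) and PPP1R13L (0.964). These values describe libraries that share a cell line and fall into 4 groups, and the 3 ML60218 libraries set most of the range for CHAC1 and DDIT3.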

How the data were processed

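Messenger RNA of 12 HEK293T libraries was made with a stranded kit after an extraction altered to retain small RNA, per the labels' protocols. The authors' deposited table gave estimated counts and TPM values per versioned Ensembl transcript, in the columns that the program salmon writes, per the file headers. The quantifier's version and transcript release are not given in the sources used here. The submitters' processing notes list bcl2fastq 2.20, Trim Galore, DESeq2 and the build hg38.

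Transcripts were assigned to genes by stable identifier in GENCODE 29. This matched 158359 of 194142 transcripts (81.6%), and those unmatched held 8.37% to 8.97% of the reads. As an alternative ("neighbouring transcripts"), 17252 of the unmatched took the gene of the nearest matched rows where those on both sides had the same gene. The rule was tried on matched transcripts, hidden singly, whose matched neighbours on both sides shared a gene. It was right for 99.9% of them. The design had expected gene-level counts, so the estimated counts of a gene's transcripts were added up and rounded to whole numbers. The 6 libraries of each experiment went into a separate edgeR 4.0.16 fit (R 4.3.3): filterByExpr (minimum count 10, minimum total 15), TMM scaling, and the robust two-sided quasi-likelihood test with Benjamini-Hochberg adjustment over all genes tested, called under 0.05. The standard error (SE) is the fold change divided by the square root of F. CPM use the TMM factors and are given as mean ± SD of 3 libraries. For a single gene, an exact permutation test of 3 against 3 cannot go below 0.1. The script was tested on simulated data.

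Genes named outside the set were certain pathway genes and, from each list, up to 3 per comparison and direction with the largest change among those called without overlap in CPM. Like genes were the 5 with the highest Pearson r among non-member protein-coding genes whose mean log2 CPM was 3 or more. The members and lists were chosen with earlier results of these data known. Alternatives were other scalings, no filter, DESeq2 1.42.0, an offset for isoform length, limma 3.58.1 on log2(TPM + 0.5), a replicate block, one fit of all libraries, and leaving out each library. One summed marker list is not reported here.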

Additional observations from a re-analysis of the deposited data

Results flagged for a closer look

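For 8 of the 10 genes the siPOLR3A effect differed from the ML60218 effect in the test of the difference itself (edgeR's quasi-likelihood test on all 12 libraries, siPOLR3A effect minus ML60218 effect, log2 scale). Of all 15780 genes tested, 50.9% passed this test (24.5% positive, 26.4% negative). The difference was −2.68 for CHAC1, −2.50 for ATF3, −1.91 for DDIT3, −1.12 for NUPR1, −0.92 for PPP1R15A, −0.81 for CEBPG, −0.73 for CEBPB and 1.10 for ATF5. The experiments differ in agent, duration and transfection, which cannot be told apart. Groups of 3 libraries were not tested for a single outlying library.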

How the results depend on the processing

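With ML60218, 9 of the 10 genes kept their direction and their side of the threshold under every alternative run, the exception being ATF4, and leaving out each library in turn left 9 called. For the difference 7 of the 10 did. With siPOLR3A 5 of the 10 kept their side of the threshold and had no called effect reversed. Of those, CEBPG (log2 fold change −0.037 to 0.053) and NUPR1 (−0.488 to 0.121) changed sign among the alternatives without passing. ATF4 reversed with neighbouring transcripts included, to −0.23 with siPOLR3A (−0.28, −0.24, −0.23 or −0.19 when a library was also left out, an alternative chosen after seeing the data) and to −0.60 for the difference. VLDLR likewise became 0.75 with siPOLR3A and 0.03 for the difference, and the difference for MARS1 became −0.14 with the isoform length offset. CHAC1 with siPOLR3A passed at 0.46 in limma on TPM (adjusted p 0.0469, range over its alternatives 0.000639 to 0.309). Same-numbered libraries did not deviate together over all genes (correlations −0.11 to −0.02), and the labels do not say whether the numbers pair them. For ATF3, DDIT3 and PPP1R15A, replicate 2 was the lowest and replicate 1 the highest in both siControl and siPOLR3A, so pairing is not settled for them. A replicate block raised the genes of the set called with siPOLR3A to 6 of the 10. That is near the 56.6% of all genes that passed without a block. It added ATF3 (−0.22, adjusted p 0.00357), DDIT3 (0.19, adjusted p 0.0497) and PPP1R15A (0.18, adjusted p 0.00407), and left the other counts within 1.5 times. Counts of called list genes with ML60218 became 7 of 15 (ER stress) and 2 of 12 (eIF2 and eIF2B) with total count scaling. They became 1 of 6 (paralogs) with no filter, and 6 of 19 (other bZIP) with the isoform length offset. In the main fit 39% of all genes passed with ML60218, and the paralogs had 1 rise and 1 fall. Leaving out 1 library gave 1 to 5 for the eIF2 list (fewest without DMSO replicate 2) and 1 to 3 for the paralogs with ML60218, 1 to 3 for the paralogs in the difference, and 7 to 11 for the ER stress genes with siPOLR3A (most without siControl replicate 1). Total count scaling raised the percentage of calls that were rises from 46.4% to 67% with ML60218 and upper quartile scaling from 48.4% to 58.7% with siPOLR3A, while the median of all genes moved by at most 0.071. Genes called numbered 4159 to 6501 with ML60218 and 7997 to 8361 with siPOLR3A when 1 library was left out. NUPR1 and GDF15 rest on few reads, which limits their precision. Of 3947 single-gene alternatives 3715 left the call as it was and reversed no called effect. A change of sign where neither fit passed was counted among these 3715.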
